A study of Homo sapiens with 8 samples.

Results

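The 39 HOX genes, taken as every gene of the table whose symbol is HOX with a cluster letter and a number, were described in stromal cells of mesenchymal type made from H9 (an embryonic stem cell line of human origin, long in use). They were 39 of 23354 genes in the table, with 11 in the HOXA cluster, 10 in HOXB, 9 in HOXC and 9 in HOXD, in 13 paralogue groups. RNA sequencing had been done on 8 libraries, each of a different condition. Of the osmolyte-frozen cells there were 3 libraries, from the multicomponent solutions labelled SMC after 2 h, SGC after 1 h and SGI after 1 h, all cooled at 3 °C per minute. Of the DMSO-frozen cells there were 2 libraries, after 1 h and 0 h with dimethyl sulfoxide, cooled at 1 °C per minute. Of the fresh, unfrozen cells there were 3 libraries, one at 0 h, one held 1 h in DMSO and one held 1 h in medium. All cells were of this 1 line, grown with serum on gelatin and used at passages 8 to 12, and the hours are times at room temperature.

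The labels do not say whether the libraries came from separate cultures, and no condition has a replicate library. The p-values therefore measure only the spread between libraries of a group. That spread holds differences in solution, holding time or DMSO, and the rest of it may be technical. Unfrozen cells in the osmolyte solutions were not analysed here. Solution, cooling rate and, in part, holding time differ together between osmolyte-frozen and DMSO-frozen cells, and their shares in a difference cannot be told apart. In such bulk RNA, fewer cells expressing a gene and less RNA per cell cannot be told apart.

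HOX genes encode homeodomain transcription factors that give cells an address along the head-to-tail axis. In each cluster the genes at the 3' end, with low numbers, are switched on first and reach furthest towards the head, and those at the 5' end, with high numbers, act towards the tail and in the limbs. Genes of the same number in different clusters are paralogues, copies of an ancestral gene. Cultured mesenchymal cells of adult tissues are known to keep the HOX pattern of the body region they came from, so the pattern can serve as a label of a culture.

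The genes that the comparisons turned on were HOXB2, HOXB3 and HOXB4. The homeobox of HOXB2, the highest HOX gene in every library, is shown above that of its paralogue HOXA2, because this pair carries the contrast described below. The homeobox is the 180-base stretch that codes for the DNA-binding homeodomain, and here it lies within 1 exon, the last, of both genes. Capitals mark the 18 bases that code for the conserved core of the third, DNA-contacting helix. The letters are the coding strand, 5' to 3', from GENCODE 29 on the human build GRCh38.
HOXB2 (chr17:48543533-48543712, minus strand): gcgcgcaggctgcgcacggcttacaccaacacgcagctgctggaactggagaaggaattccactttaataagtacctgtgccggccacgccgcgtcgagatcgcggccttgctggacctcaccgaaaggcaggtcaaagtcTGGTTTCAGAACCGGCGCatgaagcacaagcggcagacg
HOXA2 (chr7:27101251-27101430, minus strand): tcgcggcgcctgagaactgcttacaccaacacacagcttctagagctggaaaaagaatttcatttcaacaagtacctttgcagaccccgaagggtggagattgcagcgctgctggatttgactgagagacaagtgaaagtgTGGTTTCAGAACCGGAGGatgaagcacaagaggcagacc
Between the paired stretches 76.7% of bases were identical, and the longest identical run was 15 bases.

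All 8 libraries held transcripts of the 3' part of HOXA and HOXB and next to nothing of the other HOX genes. Enough counts for a test were found for 7 genes, among them HOXA2, HOXA3 and HOXA4 on chromosome 7 and HOXB2, HOXB3 and HOXB4 on chromosome 17. None of the 9 HOXC genes on chromosome 12 and none of the 9 HOXD genes on chromosome 2 reached it. Of the 32 genes below the test's filter, 17 had 0 counts in every library and 15 had a few, at most 10 in any library. HOXB1 and HOXD1 were at 0 throughout, and HOXD3, HOXC4 and HOXD4 held at most 2 counts in any library. A count of 0 allows a level of up to 0.117 to 0.146 CPM (counts divided by the library's effective size), depending on the library, where 3 counted units are entered as 6 counts. This limit covers counting error only.

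**Figure D1:**
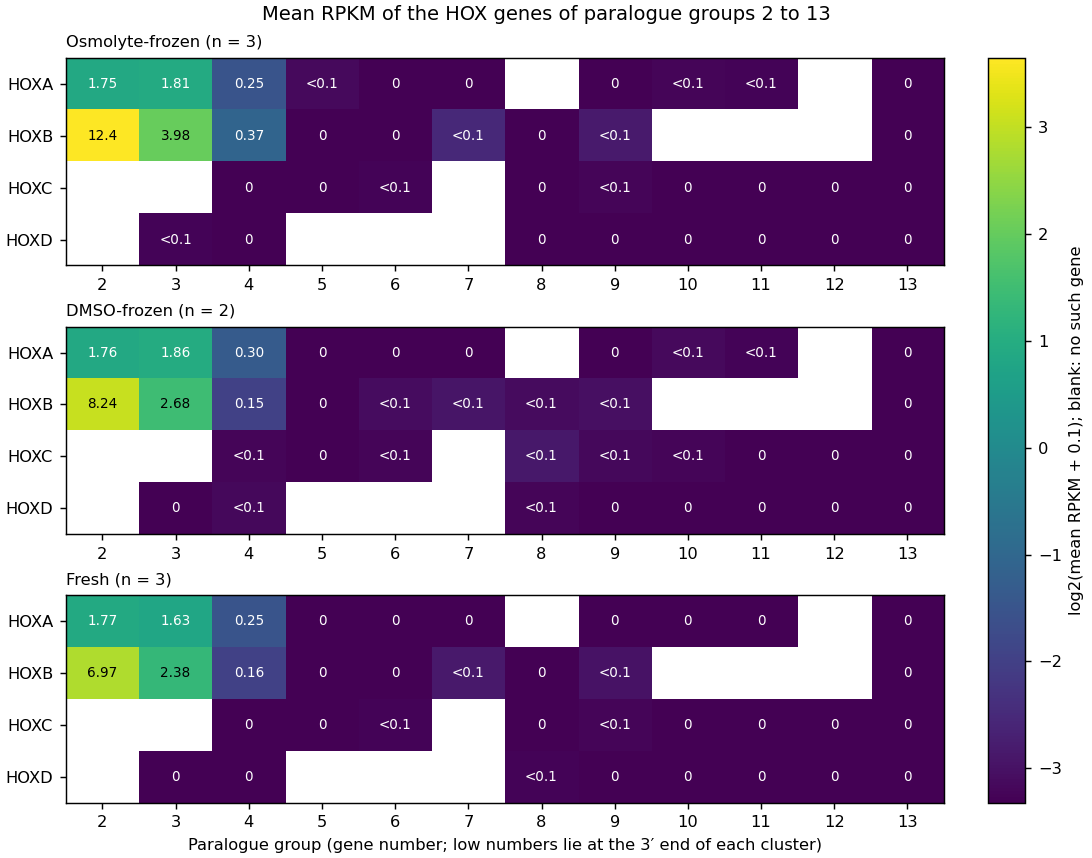
Mean deposited RPKM of the HOX genes of paralogue groups 2 to 13 in osmolyte-frozen, DMSO-frozen and fresh cells, with clusters as rows, paralogue groups as columns and colour on a log2 scale. Blank cells have no gene, and the cells of 0.15 RPKM or more lie in groups 2 to 4 of HOXA and HOXB in each of the 3 panels.

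Paralogue groups 5 to 13 together held 4 to 32 counts per library, or 0.212% to 1.25% of the HOX counts. Groups 12 and 13, which pattern the tail end and the digits, were at 0 in every library. The highest single values among the silent genes were 10 counts of HOXB7 in the SGI library and 10 counts of HOXC8 in the library frozen in DMSO at 0 h. HOXB9 had counts in 7 of 8 libraries, with at most 8. HOXC and HOXD together held 0 to 12 counts per library. At this depth these few counts could not be compared between groups.

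Per length, in the deposited RPKM, read counts scaled by gene length and library total, 4 genes stood at 1 RPKM or more in every library: HOXA2, HOXA3, HOXB2 and HOXB3. HOXB2, which patterns the hindbrain in the mouse embryo, was the highest HOX gene in all 8 libraries, at 12.4 ± 1.04 RPKM in osmolyte-frozen, 8.24 ± 0.453 in DMSO-frozen and 6.97 ± 0.972 in fresh cells (SD, n = 3, 2 and 3). HOXB3 was the next in all 8, at 3.98 ± 0.0808 RPKM in osmolyte-frozen, 2.68 ± 0.138 in DMSO-frozen and 2.38 ± 0.0427 in fresh cells. HOXA2 and HOXA3 followed and changed places between libraries.

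HOXA2 ranged from 1.58 to 1.97 RPKM and HOXA3 from 1.62 to 2.04 RPKM over the 8 libraries, so their order did not exceed the spread. HOXA4 and HOXB4 were the lowest of the 7. HOXB4 stood above HOXA4 in all 3 osmolyte-frozen libraries and below it in the 2 DMSO-frozen and 3 fresh libraries. Read as which genes stood at 0.5 RPKM or more, 5 in each library, the HOX code was alike in all 8 libraries. At 1 RPKM, the main level, it held 4 genes, the same ones, in each osmolyte-frozen and fresh library, and 5 in each DMSO-frozen library. At 2 RPKM it held 3 genes in the SMC library and 2 in each of the others. The levels, and the order of HOXA4 and HOXB4, were not alike.

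The libraries were also set side by side over the 7 genes in log2 CPM. Pearson's r was 0.996 to 0.999 between osmolyte-frozen libraries, 0.984 to 0.999 between DMSO-frozen and fresh libraries, 0.927 to 0.975 between osmolyte-frozen and DMSO-frozen libraries, and 0.955 to 0.979 between osmolyte-frozen and fresh libraries. These are correlations across 7 genes of 2 clusters, whose differences in length enter every library alike. They carry no p, and genes are not independent replicates. Spearman's rho was 1 for each pair on the same side and 0.964 for each of the 15 pairs of an osmolyte-frozen with another library. The lower rho is the exchanged order of HOXA4 and HOXB4 given above. Both coefficients use the same counts as the tests below, so they are not a separate observation.

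Osmolyte-frozen cells held more RNA of 3 HOX genes than fresh cells, all in HOXB. HOXB2 had 28.3, 29.6 and 31.8 CPM in the SMC, SGC and SGI libraries, 19.4 and 17.8 CPM in the libraries frozen in DMSO at 1 h and 0 h, and 18.4, 13.5 and 17.2 CPM in the fresh libraries at 0 h, 1 h with DMSO and 1 h in medium. The lowest osmolyte-frozen library lay above the highest of the others, and DMSO-frozen and fresh libraries overlapped. HOXB2 rose 1.82-fold against fresh cells, a log2 fold change of 0.87 with a standard error (SE) of 0.10 and an adjusted p of 3.39e-06 by edgeR's quasi-likelihood test.

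HOXB3, which acts in the hindbrain and in the neck region of the mouse embryo, had 22.0, 21.6 and 21.5 CPM in the SMC, SGC and SGI libraries, 13.2 and 14.1 CPM in the libraries frozen in DMSO at 1 h and 0 h, and 12.7, 12.4 and 12.8 CPM in the fresh libraries in the order given for HOXB2. All 3 osmolyte-frozen libraries lay far above the rest, and the 2 DMSO-frozen libraries lay just above the fresh. Against fresh cells HOXB3 rose 1.72-fold (log2 0.78, SE 0.09, edgeR adjusted p = 1.15e-06).

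HOXB4, a regulator of blood stem cell growth, was weak, with 48, 46 and 56 counts in the SMC, SGC and SGI libraries, 24 and 18 counts in the DMSO-frozen libraries at 1 h and 0 h, and 16, 26 and 18 counts in the fresh libraries in the order given for HOXB2. In CPM this came to 1.14 ± 0.0990 in osmolyte-frozen, 0.440 ± 0.120 in DMSO-frozen and 0.462 ± 0.119 in fresh cells (SD, n = 3, 2 and 3). Again the osmolyte-frozen libraries lay above all others, and DMSO-frozen and fresh libraries overlapped. Against fresh cells HOXB4 rose 2.45-fold (log2 1.29, SE 0.34, edgeR adjusted p = 0.00542).

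**Figure D2:**
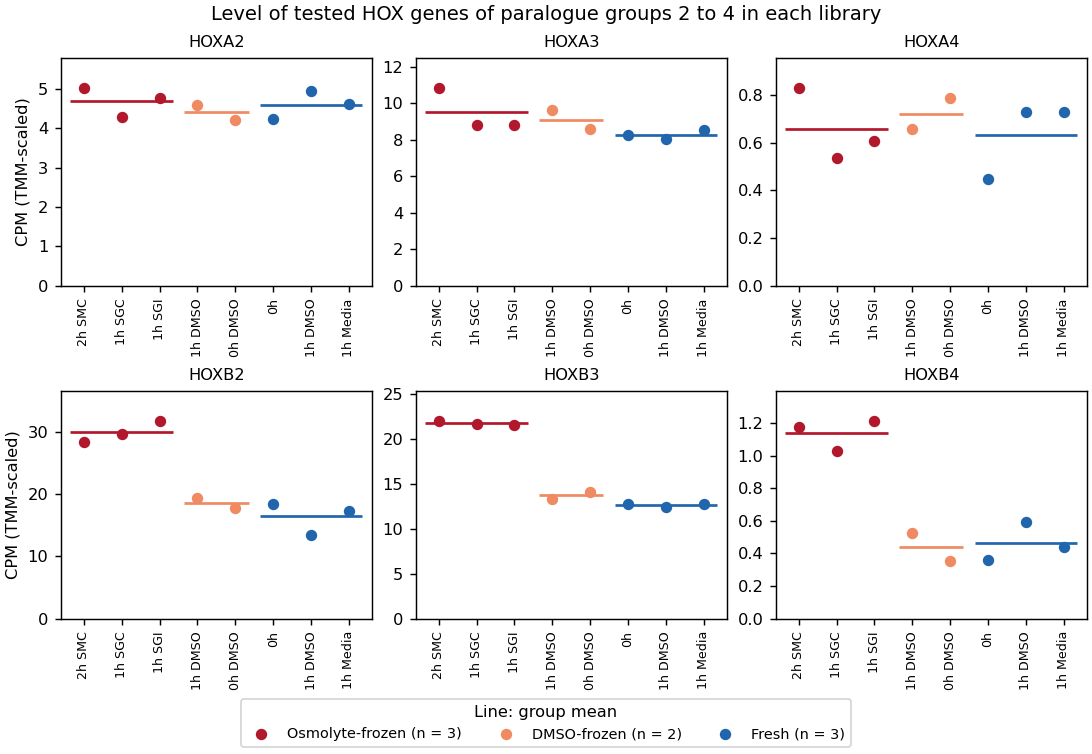
CPM of tested HOX genes of paralogue groups 2 to 4 in each of the 8 libraries, as points, with the group mean as a line, for osmolyte-frozen, DMSO-frozen and fresh cells. For HOXB2, HOXB3 and HOXB4 the 3 osmolyte-frozen points stand above the other 5.

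Of the 7 tested HOX genes, 3 were higher and 0 lower in osmolyte-frozen than in fresh cells, 42.9% of them, while 39.4% of all 15924 genes tested passed the same threshold in either direction, 18.6% as higher and 20.7% as lower. So many genes differed between these groups that a count of 3 of 7 is near the background and is not in itself a result about HOX genes. The share of all genes whose osmolyte-frozen libraries lay above all others was not counted either. The median log2 fold change was 0.20 over the 7 genes and 0.02 over all genes tested.

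HOXA2, HOXA3 and HOXA4 did not pass the test in this comparison. HOXA2, which sets the identity of the second pharyngeal arch, had a log2 fold change of 0.03 (SE 0.14). HOXA3, which acts in thymus and parathyroid formation, had 10.9, 8.84 and 8.81 CPM in the SMC, SGC and SGI libraries, 9.62 and 8.57 CPM in the DMSO-frozen libraries and 8.24, 8.06 and 8.54 CPM in the fresh libraries.

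HOXA3 in osmolyte-frozen libraries thus lay just above the fresh ones without overlap, at a log2 fold change of 0.20 (SE 0.12), and edgeR gave an adjusted p of 0.193. No count of all genes lying apart in this way was made, so no difference is read from it. HOXA4 had 20 to 40 counts per library and a log2 fold change of 0.05 with an SE of 0.36, which leaves room for a sizeable change either way.

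Against DMSO-frozen cells the same 3 genes were higher in osmolyte-frozen cells and 0 were lower, beside 29.3% of all genes tested in either direction, 13.1% as higher and 16.2% as lower. With TMM scaling 2091 of all genes were higher and 2579 lower, and with library totals 2555 were higher and 1972 lower, while the HOXB calls held. Without the SMC library 3 HOX genes were higher and 1 was lower. The comparison uses the same osmolyte-frozen libraries, so it is not a second, separate observation. HOXB2 was 1.61-fold higher (log2 0.69, SE 0.12, edgeR adjusted p = 0.000312). HOXB3 was 1.59-fold higher (log2 0.67, SE 0.10, edgeR adjusted p = 6.82e-05).

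HOXB4 was 2.59-fold higher (log2 1.37, SE 0.39, edgeR adjusted p = 0.0123). The HOXB4 call rested on the DMSO library at 0 h. Without it the log2 fold change was 1.11 and the adjusted p from edgeR 0.147, where the remaining DMSO-frozen library was taken to have the spread of the other groups, and with 1 h libraries only these were 1.10 and 0.171. The median log2 fold change was 0.09 over the 7 genes and 0.04 over all genes tested.

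HOXA2, HOXA3 and HOXA4 had log2 fold changes of 0.09, 0.06 and -0.14 against DMSO-frozen cells, and their libraries overlapped.

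DMSO-frozen and fresh cells differed in 0 of 7 tested HOX genes by edgeR, beside 1.82% of all genes tested, 1.22% as higher and 0.603% as lower. At an unadjusted p under 0.05 it was 1 gene, and DESeq2 called 0. HOXA3 and HOXB3 lay higher in DMSO-frozen cells without overlap, at log2 fold changes of 0.13 (SE 0.13) and 0.12 (SE 0.10), and did not pass the threshold. How many of all genes lay apart in this way was not counted, so no difference is read from it. HOXB2 was at 0.18 (SE 0.12), HOXA4 at 0.19 (SE 0.39), HOXA2 at -0.06 (SE 0.16) and HOXB4 at -0.08 (SE 0.41). The median log2 fold change was 0.13 over the 7 genes and -0.01 over all genes tested.

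**Figure D3:**
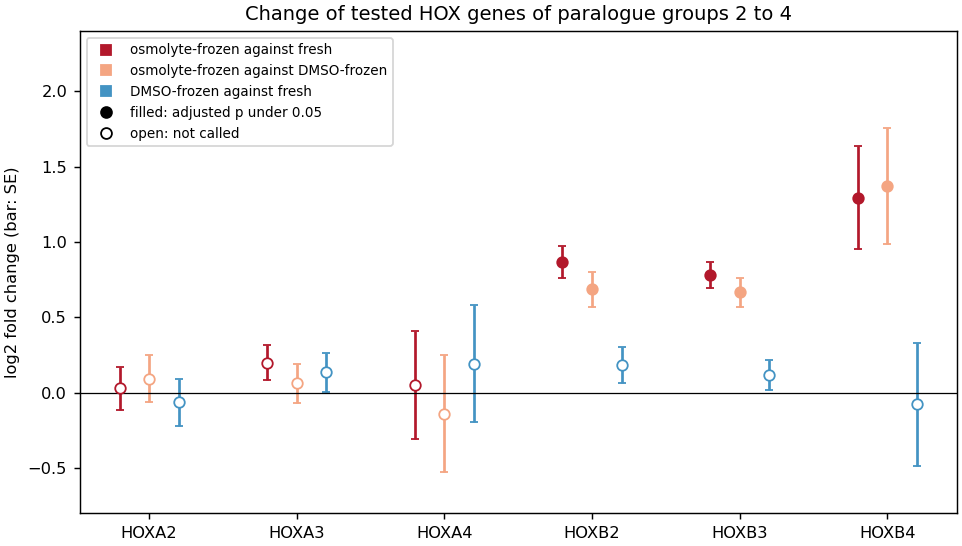
Log2 fold change of tested HOX genes of paralogue groups 2 to 4 in the 3 comparisons, with bars of 1 SE, filled where edgeR's adjusted p was under 0.05. The filled points are those of HOXB2, HOXB3 and HOXB4 in both comparisons of osmolyte-frozen cells, between 0.67 and 1.37.

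Because a ratio of paralogues within a library does not depend on how that library was scaled, each tested HOXB gene was set over its HOXA paralogue in RPKM. HOXB2 over HOXA2 was 6.24, 7.67 and 7.39 in the SMC, SGC and SGI libraries, 4.69 and 4.67 in the DMSO-frozen libraries at 1 h and 0 h, and 4.81, 3.01 and 4.15 in the fresh libraries in the order given for HOXB2. HOXB3 over HOXA3 was 1.95, 2.35 and 2.35 in the osmolyte-frozen libraries, 1.32 and 1.58 in the DMSO-frozen libraries and 1.48, 1.48 and 1.44 in the fresh libraries. HOXB4 over HOXA4 was 1.20, 1.63 and 1.70 in the osmolyte-frozen libraries, 0.680 and 0.382 in the DMSO-frozen libraries and 0.680, 0.691 and 0.510 in the fresh libraries.

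For all 3 pairs the osmolyte-frozen libraries lay above the other 5 without overlap. Such a separation was not counted over other gene pairs, so it is not read as particular to these. The 3 HOXB genes are those already called higher from the same counts, so the ratios are not a separate observation. The ratios show that the members of a pair changed unequally, not that the HOXA member did not change. HOXB made up 75.8%, 79.5% and 79.9% of the summed HOX RPKM in the SMC, SGC and SGI libraries, 68.3% and 68.6% in the DMSO-frozen libraries and 71.1%, 64.8% and 69.1% in the fresh libraries.

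**Figure D4:**
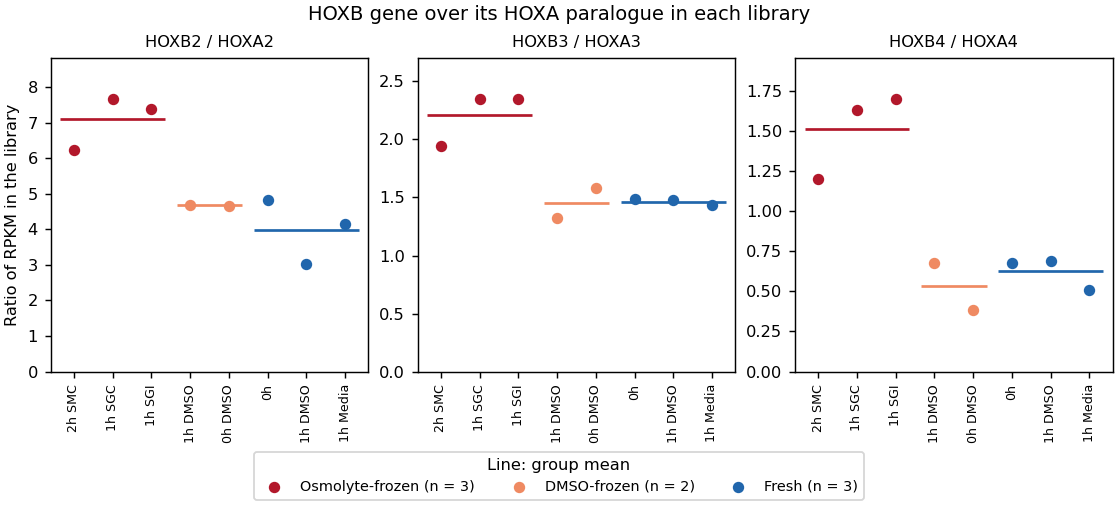
Ratio of the HOXB gene to its HOXA paralogue in RPKM within each library, by group, for the pairs of groups 2, 3 and 4. In each panel the 3 osmolyte-frozen points stand above all DMSO-frozen and fresh points.

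Transcripts of the antisense strand may bear on these values, since the strand setting of the counting is not given in the sources used here. HOXB2 lies at chr17:46620019-46622393, HOXB3 at chr17:46626232-46651810 and HOXB4 at chr17:46652869-46655743 in hg19, the build of the deposited table. In these deposited intervals none of the 3 overlaps another HOX gene. In GENCODE 29, HOXB2 overlaps HOXB-AS1 on the opposite strand, and HOXB3 overlaps HOXB-AS1, HOXB-AS2 and HOXB-AS3. On its own strand, the GENCODE 29 interval of HOXB3 also overlaps HOXB4, HOXB5 and HOXB6. HOXA3 and HOXA4, set under HOXB3 and HOXB4 in the ratios, overlap HOXA-AS2 and HOXA-AS3 on the opposite strand. Without strand, reads of a gene and of its antisense partner cannot be told apart, so the 3 rises and the ratios are uncertain in that respect. HOXB-AS3 was at 0 in every library, and HOXB-AS1 and HOXB-AS2 were not analysed here.

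Of 18 transcripts in the table that are noncoding or otherwise not HOX genes inside the clusters, 13 were at 0 in every library. Among these were HOTAIR and HOTTIP, long noncoding RNAs of the 5' ends of HOXC and HOXA, the homeobox genes EVX1 and EVX2, and the precursors MIR10A, MIR10B and MIR196B. HOTAIRM1, a long noncoding RNA of the 3' part of HOXA, was the only one tested. It had 13.3, 19.5 and 17.7 CPM in the SMC, SGC and SGI libraries, 12.2 and 14.1 CPM in the DMSO-frozen libraries and 14.3, 11.9 and 13.2 CPM in the fresh libraries, so the SMC library lay among the others.

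HOTAIRM1 rose against fresh cells by a log2 fold change of 0.36 (edgeR adjusted p = 0.0317) and had one of 0.36 against DMSO-frozen cells (adjusted p = 0.0670 by edgeR).

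Of 14 tested protein-coding genes that flank the clusters, 1 rose and 6 fell in osmolyte-frozen against fresh cells and 7 did not pass, beside 18.6% higher and 20.7% lower over all genes tested. The median log2 fold change was -0.08, against 0.02 over all genes. Around HOXB, CALCOCO2, an autophagy receptor, fell by 0.25 on the log2 scale (edgeR adjusted p = 0.0114), while SNX11 and CBX1 had log2 fold changes of -0.06 and -0.02 that did not pass. The largest changes were those of CBX5, coding for heterochromatin protein HP1 alpha (-0.70), KIAA1715 (-0.56) and SKAP2 (-0.51). CALCOCO1 was the 1 that rose (0.48). Against DMSO-frozen cells 1 rose and 4 fell with TMM scaling, or 3 and 3 with library totals. With TMM scaling 13.1% of all genes tested were higher there and 16.2% lower. Between DMSO-frozen and fresh cells 0 passed by edgeR, beside 1.82% of all genes tested. It was 0 as well at an unadjusted p under 0.05 and 0 by DESeq2.

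HOX proteins bind DNA with partner homeodomain proteins of the PBX, MEIS and PKNOX families. All 9 partners were expressed and tested, and 3 were higher and 2 lower in osmolyte-frozen than in fresh cells, with a median log2 fold change of -0.03 (0.0035 with library totals in place of TMM). Over all genes tested 18.6% were higher and 20.7% lower. MEIS3 had 24.2, 23.1 and 21.8 CPM in the SMC, SGC and SGI libraries, 10.6 and 9.48 CPM in the DMSO-frozen libraries and 10.6, 8.33 and 8.30 CPM in the fresh libraries. It rose 2.54-fold (log2 1.35, SE 0.11, edgeR adjusted p = 1.84e-08), with all osmolyte-frozen libraries above the rest.

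MEIS2 had 59.1 ± 5.05 CPM in osmolyte-frozen, 76.0 ± 1.18 in DMSO-frozen and 92.0 ± 5.84 in fresh cells (SD, n = 3, 2 and 3). MEIS2 fell by 0.64 on the log2 scale (edgeR adjusted p = 3.55e-06) and MEIS1 rose by 0.63 (adjusted p = 4.38e-05). The weakly expressed PBX4 rose by 1.21 (edgeR adjusted p = 0.0198). PBX2, PBX3, PKNOX1 and PKNOX2 did not pass. Against DMSO-frozen cells MEIS1 and MEIS3 were higher, and of the 2 that were lower 1 was MEIS2. All genes tested gave 13.1% higher and 16.2% lower there. Between DMSO-frozen and fresh cells 0 of 9 passed by edgeR, beside 1.82% of all genes tested. DESeq2 called 0, and 3 had an unadjusted p under 0.05 by edgeR.

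**Figure D5:**
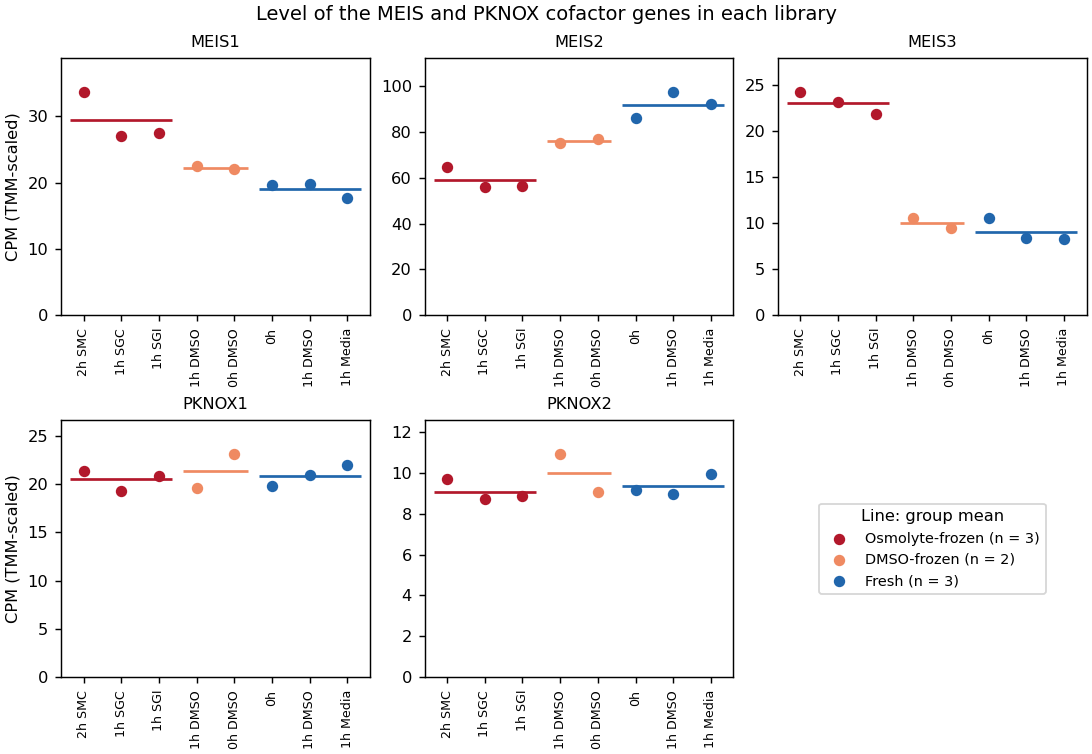
CPM of the MEIS and PKNOX partner genes in each of the 8 libraries, as points, with the group mean as a line, for osmolyte-frozen, DMSO-frozen and fresh cells. MEIS3 and MEIS1 stand higher and MEIS2 lower in the 3 osmolyte-frozen libraries than in the other 5.

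Polycomb proteins hold HOX clusters silent and trithorax proteins hold them active. Of 28 genes of both groups tested, 5 were higher and 4 lower in osmolyte-frozen than in fresh cells, with a median log2 fold change of 0.01. These 9 of 28 stand beside 39.4% called over all genes tested and are not in themselves a result about these regulators. Named by size, CBX6 fell by 0.67 (edgeR adjusted p = 3.59e-06), CBX7 rose by 0.43 (adjusted p = 0.0273) and CBX8 rose by 0.35 (adjusted p = 0.0422), all 3 coding for Polycomb chromobox proteins. EZH2, which places the silencing methyl mark, had a log2 fold change of 0.11 that did not pass. Against DMSO-frozen cells 3 were higher and 3 lower, beside 13.1% higher and 16.2% lower over all genes tested. DMSO-frozen and fresh cells differed in 0 by edgeR, beside 1.82% of all genes tested. DESeq2 called 0, and 0 had an unadjusted p under 0.05 by edgeR.

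Retinoic acid switches on 3' HOX genes in embryos and in cultured cells, and CDX factors act on the middle genes. Of 25 genes of this list 16 were tested, with 2 higher and 7 lower in osmolyte-frozen than in fresh cells and a median log2 fold change of -0.18, beside 18.6% higher and 20.7% lower over all genes tested. ALDH1A3, an enzyme that makes retinoic acid, had 28.1 ± 1.60 CPM in osmolyte-frozen, 50.9 ± 2.17 in DMSO-frozen and 89.7 ± 6.05 in fresh cells (SD, n = 3, 2 and 3). It fell by 1.67 on the log2 scale against fresh cells (edgeR adjusted p = 1.38e-11). ALDH1A3 was also the 1 gene of the list that was lower in DMSO-frozen than in fresh cells, beside 0.603% of all genes tested. There it fell by 0.82 (edgeR adjusted p = 1.9e-05).

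The receptor gene RXRA fell by 0.67 (edgeR adjusted p = 4.62e-06). TGIF1, coding for a homeodomain repressor, was among the 2 that rose, at 0.43. CRABP2, a carrier of retinoic acid, was at 76.9 to 104 RPKM in all libraries. CDX2 and CDX4 were at 0 throughout. Against DMSO-frozen cells 3 were higher and 5 lower, beside 13.1% higher and 16.2% lower over all genes tested.

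Other regional factors were read beside the HOX code. Of 23 factors of the head and anterior region 10 were tested, with 2 higher and 1 lower in osmolyte-frozen than in fresh cells and a median log2 fold change of 0.12. These 3 of 10 stand beside 39.4% called over all genes tested and are not in themselves a result about these factors. OTX2, the forebrain and midbrain factor, was at 0 counts in every library. ALX4 rose by 1.65, SIX2 rose by 0.49 and DLX1 fell by 0.21 (edgeR adjusted p = 0.0331, 0.00588 and 0.0373). With library totals in place of TMM the edgeR call of DLX1 was lost (adjusted p = 0.107), and 3 were higher and 0 lower. Against DMSO-frozen cells 1 was higher and 0 lower, beside 13.1% higher and 16.2% lower over all genes tested. DMSO-frozen and fresh cells differed in 0 by edgeR, beside 1.82% of all genes tested. At an unadjusted p under 0.05 by edgeR it was 2, and DESeq2 called 1, DLX2.

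Of 27 factors of the limb, lateral plate and trunk 12 were tested, with 3 higher and 4 lower and a median log2 fold change of -0.08, beside 39.4% of all genes tested called in either direction. PRRX1, a factor of limb and craniofacial mesenchyme, was at 65.5 to 98.5 RPKM. TBX5, which marks the forelimb field, was at 0 counts in every library, and TBX4 and PITX1, of the hindlimb field, had at most 4 and 10 counts. MEOX1, a somite factor, had 2.30 ± 0.0909 CPM in osmolyte-frozen, 0.749 ± 0.0540 in DMSO-frozen and 0.504 ± 0.396 in fresh cells (SD, n = 3, 2 and 3), and rose by 2.20 against fresh cells (edgeR adjusted p = 0.000427). TBX2 fell by 1.36 and the heart factor NKX2-5 rose by 1.31 (edgeR adjusted p = 1.35e-05 and 0.0152). Set against DMSO-frozen cells, 1 was higher and 2 lower, beside 13.1% higher and 16.2% lower over all genes tested. DMSO-frozen and fresh cells differed in 0 by edgeR, beside 1.82% of all genes tested. At an unadjusted p under 0.05 by edgeR it was 3, and DESeq2 called 1, PRRX2.

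Among all genes tested 18.6% were higher and 20.7% lower in osmolyte-frozen than in fresh cells, and the marker counts that follow stand beside these shares. The stromal label was checked against 17 markers, of which 16 were tested and NGFR was not. Of these, 4 were higher and 9 lower in osmolyte-frozen than in fresh cells, with a median log2 fold change of -0.35, against 0.02 over all genes. Against DMSO-frozen cells 1 was higher and 8 lower, beside 13.1% higher and 16.2% lower over all genes tested. The 17 markers summed to 67491 to 91294 CPM in osmolyte-frozen, 71912 to 83267 in DMSO-frozen and 66496 to 73139 in fresh libraries. A sum follows the most abundant markers of a list and can differ in direction from the median. Of 7 tested of 12 markers of pluripotent stem cells, 4 were higher and 0 lower against fresh cells, beside 18.6% higher over all genes tested. Among the 4 were NANOG (log2 0.95), ZFP42 (0.91) and POU5F1 (0.68), and the median log2 fold change of the 7 was 0.57. Against DMSO-frozen cells 2 of the 7 were higher and 0 lower, beside 13.1% higher over all genes tested. The 12 markers summed to 22.8 to 28.99 CPM in osmolyte-frozen, 19.3 to 19.6 in DMSO-frozen and 18.1 to 19.5 in fresh libraries. LIN28B, UTF1 and PRDM14 were at 0 and SOX2 at 4 counts or fewer.

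Blood markers, mostly RUNX1, had 1 higher and 0 lower of 3 tested in osmolyte-frozen against fresh cells, with a median log2 fold change of 0.20. They summed to 88.9 to 107 CPM in osmolyte-frozen, 78.8 to 81.0 in DMSO-frozen and 64.0 to 70.4 in fresh libraries, with CD3E at 0 and PTPRC at 8 counts or fewer. Of 10 endothelial markers 1 was higher and 3 lower (median 0.01), and they summed to 44.0 to 50.2, 56.3 to 61.8 and 43.7 to 50.9 CPM in osmolyte-frozen, DMSO-frozen and fresh libraries. Of 8 epithelial markers tested 2 were higher and 2 lower (median 0.38). The epithelial markers summed to 1267 to 1391, 1222 to 1244 and 1361 to 1554 CPM in the same order. Of 6 neural markers tested 0 were higher and 2 lower (median -0.02). The neural markers summed to 108 to 116, 115 to 130 and 129 to 157 CPM in the same order, with SOX1 at 0. Against DMSO-frozen cells, with TMM scaling, 1 blood and 1 epithelial marker were higher and 3 endothelial markers lower, and 0 neural markers passed by edgeR. All genes tested gave 13.1% higher and 16.2% lower there.

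The nuclear RNAs MALAT1 and NEAT1 together were highest in osmolyte-frozen cells and lowest in DMSO-frozen cells. They made up 0.895% ± 0.0509 of counts in osmolyte-frozen, 0.422% ± 0.0414 in DMSO-frozen and 0.509% ± 0.0513 in fresh cells (SD, n = 3, 2 and 3). The counts of a library, as a percentage of the total behind its RPKM values, came to 64.0% to 66.9% in osmolyte-frozen, 72.1% to 73.0% in DMSO-frozen and 66.2% to 70.4% in fresh libraries. The part of these markers and RNAs in the HOXB result was not tested. Counts summed to 41198716 to 51166666 per library.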

How the data were processed

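RNA sequencing counts and RPKM values of 8 libraries were used. Per the submitters' processing notes, the tools were HTSeq, CASAVA 1.9 and TopHat (listed as 12.0.6) and the build was hg19. The counts are whole numbers per gene as the authors deposited them, with no normalisation and with 0 odd values, so each counted unit was taken to be entered as 2. The deposited table also holds an RPKM per gene and library, scaled by the authors to a coding length that the table lists. Of 23398 entries, 49 identifiers were listed more than once, 41 with identical counts, which were kept once, and 8 with different counts, which were kept apart.

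Groups came from the sample titles. The members and lists were chosen with earlier results of these data known. With edgeR 4.0.16 in R 4.3.3, genes were kept by filterByExpr with a minimum count of 10, scaled by TMM, and tested with glmQLFit and glmQLFTest in 1 model with 3 group means, which left 5 residual degrees of freedom. P-values were adjusted by the Benjamini-Hochberg method over all 15924 genes tested, with a threshold of 0.05, and the biological coefficient of variation was 0.0974. CPM used the TMM sizes. DESeq2 1.42.0 was an alternative.

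Values per library were given for HOX genes past the threshold or at a group mean of at least 5 RPKM. Those of HOXA3, and the flanking genes CALCOCO2, SNX11 and CBX1, EZH2, CRABP2, TGIF1 and PRRX1, were added after their values were seen. From each other list up to 3 called genes with the largest change were named. MEIS1, MEIS2 and CALCOCO1 lay outside this rule and were named as well. Some genes and sequences are not reported here.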

Additional observations from a re-analysis of the deposited data

How the results depend on the processing

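HOXB2 and HOXB3 passed the threshold in both osmolyte comparisons under all 15 alternatives, and HOXB4 against fresh cells under all 15, with adjusted p from 0.00352 to 0.0448 by edgeR or DESeq2. HOXB4 against DMSO-frozen cells was lost with 1 h libraries only and without the DMSO library at 0 h, so the count of HOX genes called there was 2 with 1 h libraries only and ran from 2 to 4 as each library was left out. The count of 4, without the SMC library, was 3 higher and 1 lower. Genes called against DMSO-frozen cells numbered 4670, with 2388 from 1 h libraries only and 2122 to 5254 as each library was left out, the lowest without the DMSO library at 0 h. With library totals in place of TMM, 2555 were higher and 1972 lower, against 2091 and 2579. DMSO-frozen against fresh cells gave 290 calls, 494 by DESeq2, 182 from 1 h libraries only, and 99 to 310 as each library was left out, with 99 without the DMSO-frozen library at 1 h and 106 without that at 0 h. HOX genes at 2 RPKM or more in every library numbered 2, against 4 at 1 RPKM. In CPM, HOXB held 74.7% of the HOX total in osmolyte-frozen, 63.9% in DMSO-frozen and 64.4% in fresh cells, against 78.4%, 68.5% and 68.3% in RPKM.

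Genes that were not called changed sign in some settings. With 1 h libraries only, the log2 fold change against fresh cells was -0.078 for HOXA2 and -0.35 for HOXA4 in osmolyte-frozen cells and -0.16 for HOXA4 and 0.0175 for HOXB4 in DMSO-frozen cells, and that of osmolyte-frozen against DMSO-frozen cells was -0.0096 for HOXA2 and -0.11 for HOXA3. As each library was left out, the log2 fold change ran for HOXA2 from -0.0456 to 0.0831 and HOXA4 from -0.168 to 0.162 in osmolyte-frozen against fresh cells, for HOXA3 from -0.0675 to 0.144 in osmolyte-frozen against DMSO-frozen cells, for HOXA4 from -0.001 to 0.317 and HOXB4 from -0.376 to 0.182 in DMSO-frozen against fresh cells. The cause was not tested. No paired analysis was possible because the labels give no replicate numbers. Depth limits HOXA4 and HOXB4, at 16 to 56 counts per library.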
